A study of Drosophila melanogaster with 2 samples.

Results

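The 300 strongest binding sites of Jing in the fly embryo lay at promoters more often than weaker sites did, and the summits of those at promoters were a median of 152 bp upstream of the gene start. They were described here by their genes, their summit position, their sequence and their places in the lists of both replicates. They are the 300 peaks with the highest signal among 2593 peaks that passed the study's reproducibility threshold, and signal from both replicates entered that ranking. The ranking by signal is therefore how the peaks were chosen and is no result. Chromatin immunoprecipitation followed by sequencing was done on 2 biological replicates, numbered 2 and 3, of mixed-sex whole Drosophila melanogaster embryos aged 0 to 16 h. All came from strain jing-GFP, a transgenic line that stably expresses Jing with GFP at its C-terminus, and the antibody was against GFP. Chromatin was sonicated to 200 to 800 bp. The whole embryo was used, so the cell types in which a site was bound cannot be told apart, and no other genotype or stage was analysed here.

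Jing is a zinc-finger protein related to the mammalian Polycomb cofactor AEBP2. In flies it is known for the survival of midline and tracheal cells of the embryo and for border cell migration in the ovary. Polycomb group proteins keep genes silent through histone marks, and trithorax group proteins oppose them. A peak summit is the base with the highest signal within a peak and marks where the bound protein, or a partner that holds it on DNA, most often crosslinked.

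The 4 strongest peaks are shown first, read on the plus strand of the dm6 assembly and kept clear of annotated untranslated regions. Capitals mark 3 hexamers on either strand. The first is CAGTGG, with CCACTG as its reverse complement. The second is ACCCCT, which becomes AGGGGT when read from the opposite strand. The third is GGCGTA, which becomes TACGCC. All 3 were chosen for being more frequent in the 300 strongest peaks than in the other thresholded peaks. The stretches are chr3L:19590525-19590740 91 bp upstream of CG14100, chrX:2703853-2704013 36 bp upstream of Ugalt, chrX:2137222-2137472 inside ph-p, and chr2L:480966-481216 in an intron of ush upstream of cbt. The summit is base 91 of the CG14100 stretch, base 36 of the Ugalt stretch and base 126 of both others.
CG14100: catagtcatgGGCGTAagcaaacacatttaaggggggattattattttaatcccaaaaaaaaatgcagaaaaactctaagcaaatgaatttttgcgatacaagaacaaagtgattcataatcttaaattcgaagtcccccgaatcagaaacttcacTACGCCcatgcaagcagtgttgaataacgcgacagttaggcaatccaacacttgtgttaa
Ugalt: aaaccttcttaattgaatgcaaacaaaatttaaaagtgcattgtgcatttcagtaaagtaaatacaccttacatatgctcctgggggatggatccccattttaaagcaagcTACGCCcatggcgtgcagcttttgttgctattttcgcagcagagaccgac
ph-p: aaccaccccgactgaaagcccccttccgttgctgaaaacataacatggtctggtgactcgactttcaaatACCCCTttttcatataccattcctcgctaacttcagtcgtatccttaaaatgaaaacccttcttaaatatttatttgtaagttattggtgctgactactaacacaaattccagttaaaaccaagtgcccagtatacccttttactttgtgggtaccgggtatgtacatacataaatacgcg
cbt: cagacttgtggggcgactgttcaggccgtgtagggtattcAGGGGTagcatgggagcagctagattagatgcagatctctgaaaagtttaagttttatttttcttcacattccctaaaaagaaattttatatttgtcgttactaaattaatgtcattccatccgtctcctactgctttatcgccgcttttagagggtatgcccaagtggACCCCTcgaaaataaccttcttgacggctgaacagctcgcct
The CG14100 stretch holds GGCGTA on its left side and TACGCC on its right side, with an A- and T-rich run around the summit between them.

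The next 4 stretches are from 4 of the strongest peaks in which CAGTGG stood on the left side and CCACTG on the right side, so that the same hexamer read toward the summit from both sides. They are shown because that arrangement recurred among the strongest peaks. They cover chr2L:4997523-4997773 upstream of a start of Rtnl1, chrX:13640391-13640641 in an intron of NFAT, chr2L:10474401-10474651 upstream of RluA-1 and chr3L:3785094-3785344 in an intron of CG32264. The summit is base 126 of each.
Rtnl1: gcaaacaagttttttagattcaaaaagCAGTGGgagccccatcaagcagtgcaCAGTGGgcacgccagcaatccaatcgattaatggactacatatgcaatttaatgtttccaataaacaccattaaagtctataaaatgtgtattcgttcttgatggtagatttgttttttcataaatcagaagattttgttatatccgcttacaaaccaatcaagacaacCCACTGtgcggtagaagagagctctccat
NFAT: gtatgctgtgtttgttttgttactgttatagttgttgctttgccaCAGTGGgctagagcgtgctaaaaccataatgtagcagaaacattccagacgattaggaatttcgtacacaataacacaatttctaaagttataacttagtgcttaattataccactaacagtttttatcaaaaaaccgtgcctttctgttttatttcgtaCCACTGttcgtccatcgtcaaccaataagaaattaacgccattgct
RluA-1: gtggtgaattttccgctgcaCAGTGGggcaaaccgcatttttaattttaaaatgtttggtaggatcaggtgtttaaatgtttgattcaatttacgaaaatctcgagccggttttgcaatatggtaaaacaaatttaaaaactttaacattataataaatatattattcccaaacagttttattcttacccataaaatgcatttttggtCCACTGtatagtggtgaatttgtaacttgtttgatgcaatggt
CG32264: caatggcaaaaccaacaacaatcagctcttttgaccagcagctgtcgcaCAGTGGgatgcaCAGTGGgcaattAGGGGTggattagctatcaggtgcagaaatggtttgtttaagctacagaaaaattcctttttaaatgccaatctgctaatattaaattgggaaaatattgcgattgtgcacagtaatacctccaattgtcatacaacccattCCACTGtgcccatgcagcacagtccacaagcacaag
These peaks had ranks 23, 37, 46 and 82 by signal. Their GC content, from 31.5% in the RluA-1 stretch to 42.6% in the CG32264 stretch, was spread unevenly, with A and T concentrated in the middle.

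Of the 300 strongest peaks, 181 had their summit within 500 bp of an annotated gene start, which is called a promoter here. The share was 60.3% (Wilson 95% interval 54.7 to 65.7), against 50.3% (44.7 to 56.0) of the next 300 peaks and 38.3% (36.3 to 40.3) of the 2293 other thresholded peaks. The difference from the next 300 was 10 percentage points (Newcombe 95% interval 2.04 to 17.8), and that from all other thresholded peaks was 22.0 points (16.1 to 27.8). Among the 27407 pooled peaks below the threshold 15.3% lay at promoters. Within the 300, promoters held 64 of ranks 1 to 100, 67 of ranks 101 to 200 and 50 of ranks 201 to 300. These and all later intervals cover counting error only, and peaks close to each other are not independent.

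Introns held 90 of the 300 (30%, 25.1 to 35.4), against 40.5% (38.5 to 42.5) of the other thresholded peaks, a difference of -10.5 points (-15.8 to -4.75). The share was 33.0% in the next 300, where the interval of the difference, -10.4 to 4.42 points, included 0. Of the 90, 75 lay in the first intron of a transcript, which is 83.3% (74.3 to 89.6), against 68.4% (65.3 to 71.3) of 929 other intronic peaks. That difference was 15 points (5.50 to 22.0). In the next 300 it was 77 of 99 (77.8%), and the interval of the difference, -5.91 to 16.7 points, included 0. The median distance of the 90 to the nearest start was 1768 bp, with the middle 50% from 954 to 4272 bp, against a median of 2863 bp for other intronic peaks. Intergenic sequence held 26 of the 300 (8.67%, 5.98 to 12.4), against 14.3% (10.8 to 18.8) of the next 300 and 18.7% (17.2 to 20.4) of the others. Summits within 500 bp of a start were classed as promoter first, so intron, intergenic, exon and UTR counts cover only summits farther away. Among those, exons held few of the strongest summits. There was 1 in a 5' UTR at Fbl6 (rank 243), 1 in a coding exon of Cib2 on 2R (rank 199) and 1 in a non-coding exon of lncRNA:CR46035 inside osa (rank 38). None of the 300 was classed in a 3' UTR or lay in an annotated transposable element, and a count of 0 of 300 allows a share of up to 1%. The strongest intronic peak was that at ush and cbt (rank 4), and the strongest intergenic peak lay 910 bp upstream of lncRNA:CR45643 (rank 17).

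At promoters the summit stood upstream of the start and not on it. The median position of the 181 was 152 bp upstream, with the middle 50% from 224 to 87 bp upstream, against a median of 153 bp upstream for 151 promoter peaks of the next 300 and 131 bp upstream for 878 promoter peaks of all others. In 107 of the 181 (59.1%, 51.8 to 66.0) the summit lay 50 to 250 bp upstream, against 48.9% (45.6 to 52.2) of the other promoter peaks, a difference of 10.3 points (2.26 to 17.9). In the next 300 the share was 49.0%, and the interval of the difference, -0.632 to 20.6 points, included 0. In 29 of the 181 (16.0%) the summit lay downstream of the nearest start, against 191 of the 878 (21.8%), and the interval of that difference, -11.2 to 0.846 points, included 0. The nearest start was that of a protein-coding gene in 167 of the 181. Counted over all peaks, 106 of the 300 (35.3%, 30.1 to 40.9) had a summit over 100 and up to 300 bp upstream of the nearest start, against 23.3% (18.9 to 28.4) of the next 300 and 16.7% (15.2 to 18.3) of all other thresholded peaks. The difference from the next 300 was 12 points (4.72 to 19.1).

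**Figure D1:**
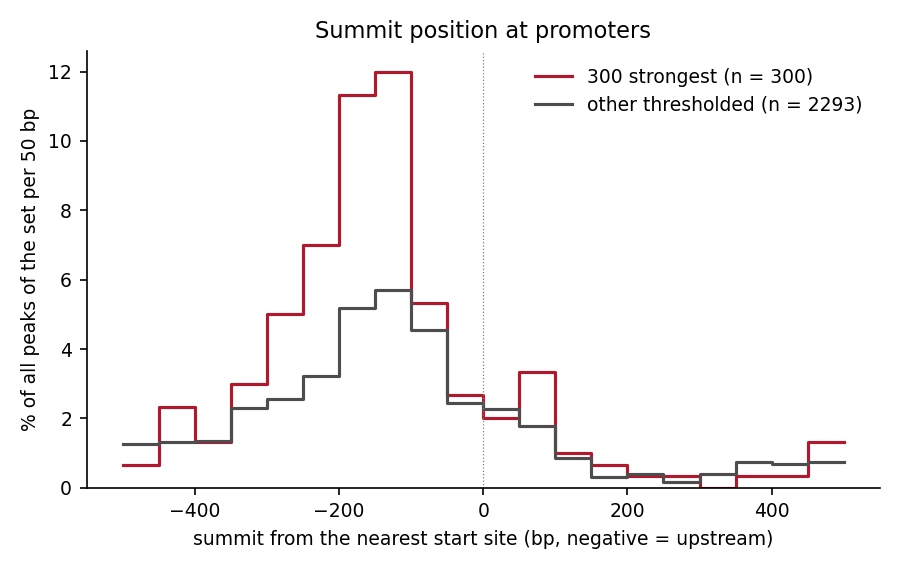
Share of all peaks of each set (y axis, percent per 50 bp) by the position of the summit relative to the nearest gene start (x axis, bp, negative upstream), for the 300 strongest peaks (red) and the 2293 other thresholded peaks (grey). The red line stands above the grey one in every bin from 350 bp upstream to the start, and in some bins outside that range. The fullest bin, 150 to 100 bp upstream, holds 12% of the 300, against 5.71% of the others.

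Divergent promoters, where 2 genes start back to back on opposite strands within 500 bp of the summit, held 53 of the 300 (17.7%, 13.8 to 22.4). The share was 9.99% (8.83 to 11.3) in the other thresholded peaks, a difference of 7.68 points (3.57 to 12.5), and 14.7% in the next 300, where the interval of the difference, -2.92 to 8.91 points, included 0. The starts of these 53 pairs were a median of 252 bp apart, and in 37 of them (69.8%, 56.5 to 80.5) the summit lay between the starts, a median of 26 bp from the midpoint. A summit between the starts was less frequent than in the next 300, where 40 of 44 (90.9%) had it, and than in all other thresholded peaks, where 83.4% of 229 did. The differences were -21.1 points (-35.5 to -4.99) and -13.6 points (-27.6 to -1.65). The starts were a median of 272 bp apart in the next 300 and 302 bp apart in all other thresholded peaks. First quartiles of this gap were 105 bp in the 300, 220 bp in the next 300 and 216 bp in all others. The part of the gap in these differences was not tested. The strongest was at Chro (rank 7), a chromodomain protein of polytene interbands, with the summit 74 bp inside Chro and 179 bp upstream of Ssl1, a subunit of the general factor TFIIH. Next came CenG1A paired with mRpS23 (rank 11), Art3, an arginine methyltransferase, with mRpS10 (rank 12), CG9147 with Fbw5 (rank 13), and CHMP2B, a membrane-remodelling protein, with Tcs5 (rank 14), where the summit was 112 bp upstream of both starts. Further down stood Shc with Atat (rank 36), Mppe with pds5 (rank 104), Cp190 with CG4338 (rank 213) and brm with Arl1 (rank 214).

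**Figure D2:**
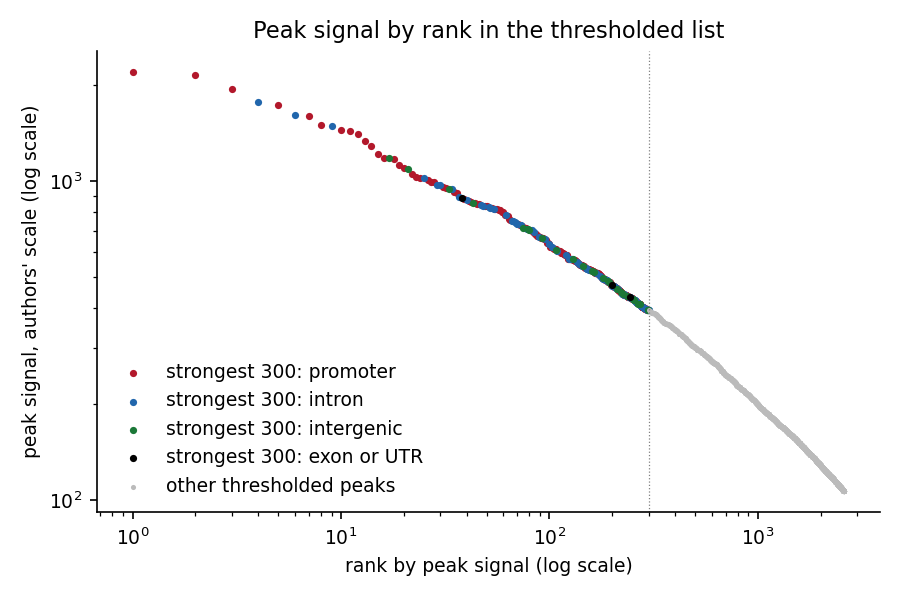
Peak signal on the authors' scale (y axis, log) by rank (x axis, log) for the thresholded peaks, with the 300 strongest coloured by location and the other 2293 in grey. Signals run from 2208 at rank 1 to 393.04 at rank 300 with no gap at the dotted line that ends the set. Promoter and intron peaks appear from the first 4 ranks on, and intergenic peaks from rank 17 on.

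Signal fell smoothly through the boundary of the set. It was 394.9 at shn, 394.5 at CG4218, 394.4 at lncRNA:CR44603, 394.2 at CHES-1-like and 393.04 at fray (rank 300) just inside, and 393.02 at Oatp30B, 392.5 at sls, 391.2 at mbc, 390.8 at CG14434 and 390.5 at unc-119 just outside. Peaks of the 300 were a median of 229 bp wide, with the middle 50% from 184 to 275 bp. Of the other thresholded peaks 2075 of 2293 had the same width of 364 bp, which only 18 of the 300 had, so widths of the sets are not on the same footing. The summit of the 300 lay a median of 9.5 bp from the middle of the interval. The -log10 q-value in the authors' deposited file was at its ceiling for all 300 and for 1709 of the 2593, so it did not order them.

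By arm, 66 of the 300 lay on 2L, 57 on 2R, 53 on 3L, 61 on 3R and 63 on X. No member lay on the fourth chromosome, where 14 other thresholded peaks were, or on Y, where none was. Per megabase the density was 2.81 on 2L (Poisson 95% interval 2.17 to 3.57), 2.68 on X (2.06 to 3.42), 2.25 on 2R (1.71 to 2.92), 1.90 on 3R (1.45 to 2.44) and 1.89 on 3L (1.41 to 2.47). Neighbours in that order overlapped in their intervals. The X share was 21.0% (16.8 to 26.0), against 18.6% (17.0 to 20.2) of the other thresholded peaks, and the interval of the difference, -2.11 to 7.62 points, included 0. Of the 300, 6 had another of the set within 1 kb, 32 (10.7%) within 5 kb and 70 (23.3%) within 20 kb.

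The 300 summits were nearest to the starts of 283 different genes, 254 of them protein-coding. For 77 of the 254 (30.3%) the RefSeq product was an uncharacterized protein, against 408 of 1436 (28.4%) protein-coding genes nearest to the other thresholded peaks and 6108 of 13968 (43.7%) of all protein-coding genes. The nearest start belonged to a non-coding gene in 34 peaks (11.3%, 8.22 to 15.4), against 16.0% (14.6 to 17.6) of the others, a difference of -4.67 points (-8.15 to -0.338), and 15% of the next 300, where the interval of the difference, -9.12 to 1.78 points, included 0. Of the 34, 31 were ncRNA genes and 1 was a tRNA gene, tRNA:Tyr-GTA-1-8 (rank 162). Counted by gene, 430 of 18277 annotated genes (2.35%) held a member of the set in their span or within 1 kb, and 2405 (13.2%) held any thresholded peak. So 17.9% of the genes with a peak had one of the 300.

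Among the strongest 40, genes of metabolism, mitochondria and membranes stood beside regulators. Ugalt (rank 2) carries UDP-galactose into the Golgi, Lk6 (rank 9) is a kinase of the translation factor eIF4E, and PNPase (rank 10) is a mitochondrial RNA exonuclease. The peak at CenG1A (rank 11) lay 381 bp upstream of mRpS23, that at mRpL41 (rank 16) 136 bp upstream, and that at Art3 148 bp upstream of mRpS10, all 3 encoding proteins of the mitochondrial ribosome. Pdrg1 (rank 32), a prefoldin-like subunit, shared its peak with Pal1. Regulators were ph-p (rank 3), px (rank 5), named for its wing vein phenotype, Atf3 (rank 28), a stress-responsive bZIP factor, Trl (rank 34), the GAGA factor, NFAT (rank 37), and HmgZ and HmgD (rank 25), small chromatin proteins. Shc (rank 36) is an adaptor of receptor tyrosine kinases, Rtnl1 (rank 23) shapes the endoplasmic reticulum, and tank (rank 18) and Tina-1 (rank 19) are given by name only. At ranks 17, 20 and 38 the nearest start was of a long non-coding RNA, and uncharacterized proteins took ranks 1, 6, 8, 13, 15, 21, 22, 24, 26, 29, 30, 31, 33, 39 and 40. SLC5A11 (rank 27), a solute co-transporter, completed them with Chro, cbt, CHMP2B and jing.

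The lists that follow are of known pathways, and a gene counted when a summit of the set lay in its span or within 1 kb. Of 37 Polycomb and trithorax group genes 9 (24.3%) held a member of the set, beside 2.35% of all genes. As a share of the listed genes with any thresholded peak it was 9 of 17 (52.9%), beside 17.9% over all genes. Long genes can hold more summits, and span length was not matched in these shares. The strongest was the peak upstream of CG14100, with signal 2208 and rank 2 in both replicates. It counted for ash1, a histone methyltransferase, because its summit lay within 1 kb past the 3' end of ash1. It was not at a start of ash1. Next was ph-p, a subunit of Polycomb repressive complex 1, whose 2 peaks of ranks 3 and 71 both lay inside the gene. Trl and jing followed, then osa, a subunit of the Brahma remodelling complex (rank 38), and trx, a histone methyltransferase (rank 70). Su(z)2 (rank 86) and Psc (rank 291) are neighbouring paralogs of the same Polycomb complex, and brm (rank 214) is the ATPase of the Brahma complex.

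The peak at jing itself, chr2R:6501966 at its summit, had signal 924 and lay 40 bp upstream of a start of the gene. It was 518 bp wide, the widest of the 300. Its places were 14 in replicate 2 and 74 in replicate 3. The insertion in this strain targets jing, per the labels, and its part in this peak was not tested. The other 7 thresholded peaks in the span of jing or within 1 kb had ranks from 768 to 2589.

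Of 21 insulator and architectural genes 7 held a peak and 3 a member of the set (14.3% of the 21, 42.9% of the 7). Over all genes these shares were 2.35% and 17.9%. The 3 were Chro, JIL-1 (rank 182), a histone H3 kinase, and Cp190 (rank 213), an insulator cofactor. Of 40 general chromatin and transcription genes 11 held a peak and 6 a member (15% of the 40, 54.5% of the 11). Among them were wde (rank 69), a cofactor of histone methylation, gro (rank 122), the Groucho corepressor, Mi-2 (rank 242), a nucleosome remodeller, and Dsp1 (rank 257).

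Of 27 genes of EGF receptor and Ras signalling 15 held any thresholded peak (55.6%), beside 13.2% of all genes. A member was held by 6 (22.2% of the 27, 40% of the 15). Over all genes these shares were 2.35% and 17.9%. Spi (rank 107), the activating ligand, had a summit 202 bp upstream of a start. Raf, the kinase below Ras, had 2 intronic peaks of ranks 51 and 144, and RasGAP1 (rank 160) turns Ras off. The nuclear effector pnt (rank 64), an ETS activator, had a summit 269 bp upstream of a start. Edl (rank 155), a regulator of ETS factors, and aos (rank 89), a secreted inhibitor of the receptor, had intronic summits.

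Of 47 genes of the Wnt, Notch, Hedgehog and Dpp pathways 8 held a member (17.0%). They were the ligand wg (rank 130), the receptors fz (rank 150) and N (rank 244) and the kinase sgg (rank 99). Of the Dpp pathway they were the Smads Mad (rank 135) and Med (rank 57), the inhibitory Smad Dad (rank 265) and the zinc-finger factor shn. The signal of 394.9 at shn placed it among the last 5. The Med summit lay past the 3' end of Med, within 1 kb, and 11 bp upstream of Mnat9. Of 31 neural progenitor genes 12 held a peak and 4 a member (12.9% of the 31, 33.3% of the 12), elav (rank 136), numb (rank 111), brat (rank 261) and N. Of 29 midline, glia and axon genes 19 held a peak and 4 a member (13.8% of the 29, 21.1% of the 19). Over all genes these shares were 2.35% and 17.9%. The 4 were pnt, aos, moody (rank 141), a receptor of the blood-brain barrier, and robo2 (rank 197), a receptor for Slit.

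In the remaining developmental lists the members were set beside 2.35%, the share of all genes that held one of the 300. Of all genes with a thresholded peak, the share that held one was 17.9%. Of 29 genes of FGF signalling and tracheal development 19 held a thresholded peak and 0 held one of the 300. Of 33 muscle and mesoderm genes 11 held a peak and 0 a member. Of 40 Hox and segmentation genes 14 held a peak and 1 a member (2.5% of the 40, 7.14% of the 14), bowl (rank 287). Of 26 ecdysone and JAK-STAT genes 15 held a peak and 2 a member (7.69% of the 26, 13.3% of the 15), the nuclear receptors Hr3 (rank 95) and Hr4 (ranks 151, 175 and 207). Of 32 appendage and eye genes 16 held a peak and 2 a member (6.25% of the 32, 12.5% of the 16), px and wg. The lists were chosen with earlier results of these data known, and no list was tested.

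The next lists are also set beside the shares over all genes, 2.35% with a member and 17.9% of those with a thresholded peak. Of 37 genes of cell growth and kinases 15 held a peak and 4 a member (10.8% of the 37, 26.7% of the 15), Lk6, Atf3, CycB (rank 43) and sgg. The CycB summit lay past the 3' end of CycB, within 1 kb. Of 17 haemocyte genes 6 held a peak and 2 a member (11.8% of the 17, 33.3% of the 6), ush, a cofactor of GATA factors, and cbt, a zinc-finger factor. Of 73 mitochondrial ribosomal protein genes 10 held a peak and 4 a member (5.48% of the 73, 40% of the 10). The 4 were mRpS23, mRpS10, mRpL41 and mRpL23 (rank 53). Of 92 cytoplasmic ribosomal protein genes 29 held a peak and 2 a member (2.17% of the 92, 6.90% of the 29), RpS27 (rank 167) and RpL23A (rank 293). Of 54 translation factor genes 6 held a peak and 2 a member (3.70% of the 54, 33.3% of the 6). The 2 were eIF2Bbeta, within 1 kb of the Ugalt peak, and eIF4EHP (rank 113). Of 2448 long non-coding RNA genes 255 held a peak and 41 a member (1.67% of the 2448, 16.1% of the 255). A member was held by 2 of 295 tRNA genes (0.678%), 2 of 306 small nuclear and nucleolar RNA genes (0.654%) and 1 of 260 microRNA genes (0.385%). The 2 tRNA genes shared 1 peak (rank 162), and the 2 small nuclear and nucleolar RNA genes shared 1 (rank 176).

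Ush and Hr4 held 3 members each, the most of any gene, and 19 further genes held 2. The span of ush on 2L, 64.3 kb long, held 12 thresholded peaks, with members of ranks 4, 154 and 285. Hr4 on X, 66.0 kb long, held 8. Genes with 2 members included ph-p, lncRNA:CR45643, lncRNA:Vinr, lncRNA:CR44619, Atat, for, Raf and lncRNA:CR44810, and some of these overlap each other and share their peaks.

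Nearly all of the 300 were found again in each replicate on its own. A summit within 100 bp was present in the relaxed list of replicate 2 for 299 and in that of replicate 3 for 298, and 297 (99.0%, 97.1 to 99.7) were in both, against 93.5% (92.4 to 94.4) of the other thresholded peaks. Because both replicates fed the pooled signal, a high place in each is built into the choice. Of the 300, 258 were among the 300 strongest of replicate 2, 268 among those of replicate 3 and 228 (76.0%) among both. All but 5 (98.3%) were among the 600 strongest of both. The 10 strongest were all within the first 15 places of each replicate, and the 30 strongest within the first 100.

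A check that does not use the pooled ranking took the 300 strongest peaks of 1 replicate and looked them up in the other. Of the 300 strongest of replicate 2, 291 had a peak in replicate 3, 228 (76.0%, 70.9 to 80.5) of them among its 300 strongest, and their median place there was 153. Of the 300 strongest of replicate 3, 299 had a peak in replicate 2, and their median place there was 168, with the middle 50% from 77.5 to 294. Signals were not compared between the lists, since their scale is not given.

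**Figure D3:**
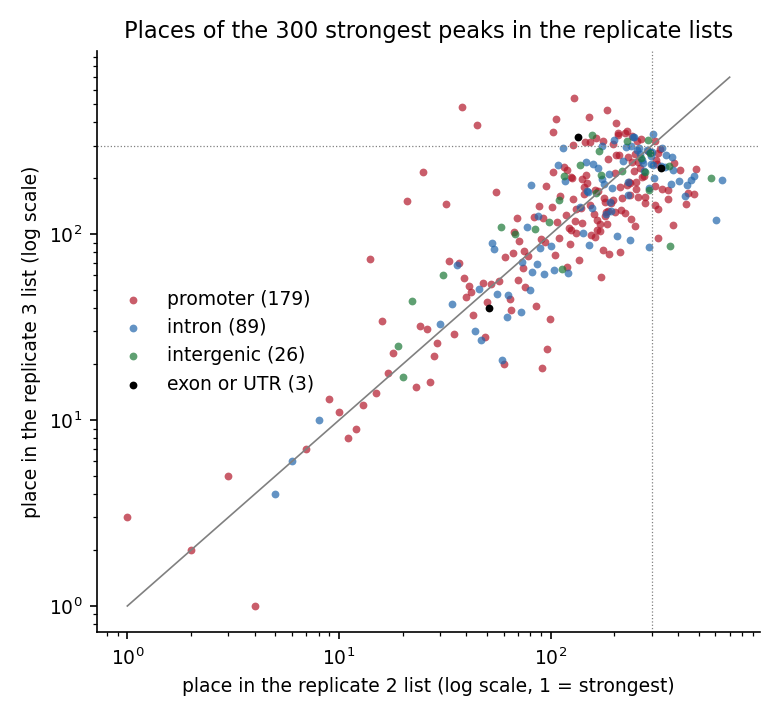
Place of each of the 297 peaks found in both replicates in the list of replicate 2 (x axis, log scale) and of replicate 3 (y axis, log scale), coloured by location. The grey line marks equal places and the dotted lines place 300. Points follow the line at the strong end and widen toward place 300, with a few promoter peaks high in replicate 2 and low in replicate 3 standing far above the line.

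Across the 297 peaks in both lists the places had a Spearman correlation of 0.68, and the log10 places a Pearson correlation of 0.82. The same 2 values were -0.18 and -0.30 for 287 peaks of the next 300, and 0.52 and 0.50 for 2143 other thresholded peaks. The points of each set share the 2 libraries and the pooled ranking that chose them. These values therefore depend on the range of ranks taken and are descriptions. In 238 of the 297 (80.1%, 75.2 to 84.3) the places differed by at most a factor of 2, against 73.5% (71.6 to 75.3) of 2143 other thresholded peaks in both lists, a difference of 6.64 points (1.40 to 11.2). In the next 300 it was 224 of 287 (78.0%), and the interval of the difference, -4.51 to 8.69 points, included 0. These places also fed the pooled ranking. Summits also lay closer together. In 219 of the 300 (73.0%, 67.7 to 77.7) both replicate summits were within 20 bp of the pooled summit, against 54.7% (49.0 to 60.2) of the next 300 and 47.5% (45.5 to 49.6) of all other thresholded peaks, and the difference from the last was 25.5 points (19.8 to 30.6). The replicate summits of the 300 were a median of 10 bp apart, against 15 bp in the next 300 and 19 bp in all others.

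Some places differed widely between replicates. Scro, an NK-2 type homeodomain factor, was at place 38 in replicate 2 and 481 in replicate 3. Su(z)2 was at place 25 in replicate 2 and 217 in replicate 3, and wg, the Wingless ligand, at 45 and 386 in the same order of replicates. Pnt stood at 21 in replicate 2 and 151 in replicate 3. With jing and CG11309 (places 32 and 145) these were the 6 peaks that stood highest in replicate 2 relative to replicate 3, all of them promoter peaks. GC content in the 200 bp around the summit was 62.5% at jing, 57.0% at wg, 55.5% at pnt, 52.0% at Su(z)2, 43.5% at scro and 28.0% at CG11309, beside a median of 34.5% over the 300, and its part in these places was not tested. In the other direction ITP (rank 208) was at place 605 in replicate 2 and 119 in replicate 3, Atf3 at 91 and 19, CG17896 at 366 and 86, Shc at 96 and 24, mlt at 292 and 85, and Ugalt at 4 and 1. At these 6 peaks GC content was between 37.5% at CG17896 and 58.5% at ITP. With 1 library per replicate there is no error for a single place, so a difference at 1 gene cannot be told from the noise of the libraries.

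Of the 3 peaks not found in both lists, Lamtor3 (rank 115), a lysosomal scaffold subunit, was at place 112 in replicate 2 and had no peak within 1 kb in replicate 3. UpSET (rank 203) was at place 284 in replicate 2 and likewise had none in replicate 3. At Dh31-R (rank 248), a neuropeptide receptor, the peak of place 195 in replicate 3 met a replicate 2 peak of place 420 whose summit lay 101 bp away, just past the 100 bp allowed.

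The summits of the 300 lay in DNA poor in G and C. GC content in the 200 bp around the summit had a median of 34.5%, against 43.3% in windows centred 500 bp away, and it was lower at the summit than in the flanks in 235 of the 300 (78.3%), against 1785 of the 2293 other thresholded peaks (77.8%). The same measures were 35.0% at the summit and 42.8% in the flanks for the other thresholded peaks, and 41.0% and 41.5% for pooled peaks below the threshold. In 50 bp bins the dip of the 300 was deeper and its sides higher. Mean GC was 31.5% and 31.8% in the bins left and right of the summit, against 34.0% and 34.3% in the other thresholded peaks, and 46.0% and 46.6% in the bins 150 to 200 bp away, against 43.5% and 43.8%.

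Most known motif letters had close shares in the 300 and in the other thresholded peaks. TATAAA was in 35.7% of the 200 bp windows of the 300, against 35.2% of the others, and GAGAG, bound by the GAGA factor, in 25%, against 24.3%. GCCAT, the core of the Pho motif, was in 26.3%, against 26.9%, AGATAA in 14%, against 14.6%, TAATTA in 16.0%, against 16.7%, and CGATA in 23.3%, against 23.9%. TATCGATA, the DRE, was in 4 of the 300. GTGTGT was in 8.67% (5.98 to 12.4), against 12.1% of the others and 20.5% of the flanks of the 300. All motifs were searched on both strands, and a match is not evidence of binding by the named factor.

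The hexamers marked in the sequences above were picked from all 6-mers after their shares were seen, so their shares are descriptions. CAGTGG was in 63 of the 300 windows (21.0%), against 13.6% of the other thresholded peaks, 10.6% of pooled peaks below the threshold and 10.7% of the flanks. It was the only one of the 8 hexamers with the largest difference in share that held more G and C than A and T, the others being A- and T-rich, such as CATTTA (33.7%, against 23.7%). GGCGTA was in 28 (9.33%), against 3.31%, and ACCCCT in 30 (10%), against 3.66%, the largest ratios among hexamers in at least 15 of the 300. One base longer, CTACGCC, which holds the third hexamer, was in 19 (6.33%), against 1.26%. AACCCCC, which does not hold ACCCCT, was in 17 (5.67%), against 1.74%. By rank, GGCGTA was in 18.0% of ranks 1 to 50, 10% of ranks 51 to 100, 11.0% of ranks 101 to 200, 3.00% of ranks 201 to 300 and 4.33% of the next 300. CAGTGG was in 24%, 22.0%, 22.0%, 18.0% and 15.7% of the same bins.

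CAGTGG stood beside the summit and not on it. In the 300 it had 2.33 matches per kb in the bin 50 to 100 bp left of the summit and 2.40 in the bin 50 to 100 bp right of it, but 0.333 and 0.40 in the 50 bp on either side of the summit. The next 300 had 1.40 in both of the outer bins. In all other thresholded peaks the same bins had 0.959 and 1.06 matches per kb, with 0.515 and 0.541 next to the summit. Below the threshold the rate was flat, between 0.573 and 0.622 per kb within 150 bp. In the Rtnl1, NFAT, RluA-1 and CG32264 stretches shown above, the capitals can be seen at both ends with the A- and T-rich middle free of them.

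**Figure D4:**
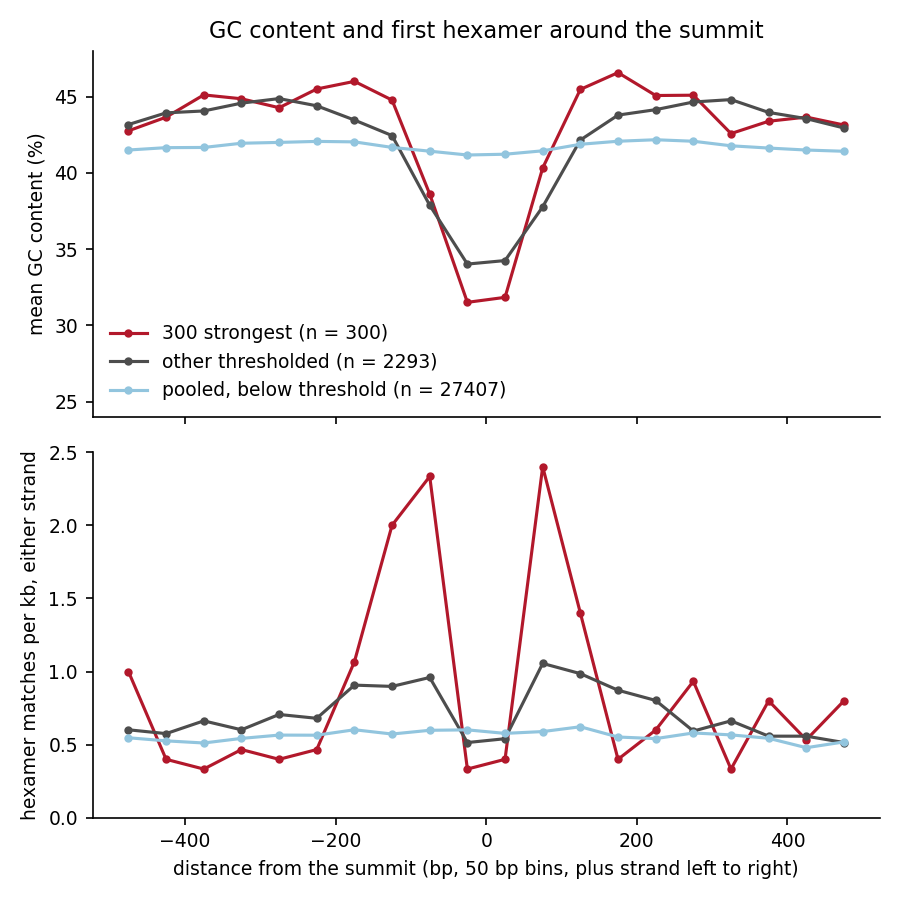
Mean GC content (upper panel, percent) and matches per kb of CAGTGG, the first hexamer, on either strand (lower panel) in 50 bp bins around the summit (x axis, bp). Lines are the 300 strongest (red), the 2293 other thresholded peaks (grey) and the 27407 pooled peaks below the threshold (blue). The red line dips to 31.5% GC at the summit in the upper panel, and in the lower panel rises to 2.33 and 2.40 matches per kb on either side of it.

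The direction of the hexamer was not used in choosing it, since both strands were counted together. Between 50 and 150 bp from the summit the 300 held 120 matches, of which 104 read CAGTGG toward the summit and 16 away from it. The share toward the summit was 86.7% (79.4 to 91.6), against 76.9% (72.7 to 80.6) of 433 matches at the other thresholded peaks and 53.0% (51.2 to 54.7) of 3110 matches below the threshold. The difference was 9.76 points (1.63 to 16.3) from the other thresholded peaks and 33.7 points (26.3 to 39.0) from those below the threshold. Intervals of these match shares treat matches as independent, though 24 of the 300 peaks held 2 or more toward the summit. The share toward the summit did not separate the 300 from the next 300, where it was 87.3% of 79 matches. The interval of that difference was -9.84 to 9.69 points. At promoters of the 300 the share was 88.7% of 62 matches, and elsewhere 84.5% of 58.

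Counted by peak, 76 of the 300 (25.3%) had CAGTGG reading toward the summit and 15 (5.00%) had it reading away. The first share was 12.5% in the other thresholded peaks, a difference of 12.9 points (8.06 to 18.2), and 5.62% below the threshold. In the next 300 it was 19.0%, and the interval of the difference, -0.322 to 12.9 points, included 0. On both sides at once the hexamer read toward the summit in 22 of the 300, against 41 of 2293 other thresholded peaks, a difference of 5.55 points (3.02 to 9.10), and 66 of 27407 below the threshold. The next 300 had 10, a difference of 4 points (0.365 to 7.83). The 22 included the second ph-p peak (rank 71), for (rank 109), bves (rank 126) and Ptpmeg2 (rank 163), beside those printed. At most 3 matches toward the summit were in 1 peak, as in Rtnl1, the second ph-p peak and CG32264. Since the shares of CAGTGG chose it, only its direction and not these counts is independent of that choice.

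Bases beside the hexamer were also uneven. Matches with fewer than 3 bases before them inside the 150 bp were left out here, which kept 101 of the 104 toward the summit in the 300. In these 101 the base just before CAGTGG was A in 76.2% (67.1 to 83.5), the base before that C in 47.5% (38.1 to 57.2) and the base before that G in 57.4% (47.7 to 66.6). Below the threshold the same shares were 35.3%, 26.7% and 33.7% of 1594 matches. The longer run GCACAGTGG read toward the summit 34 times and away 1 time in the 300, against 98 and 6 times in the other thresholded peaks and 165 and 49 times below the threshold. This run joins to CAGTGG the 3 bases just given, which were read from matches toward the summit in the 300. Its direction and its share in the 300 are therefore not independent of that choice. GCACAGTGG was in 26 of the 300 peaks reading toward the summit (8.67%), against 6.67% of the next 300 and 3.88% of all other thresholded peaks. In the CG32264 stretch it appears as gcaCAGTGG on the left side and as its reverse complement on the right side.

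GGCGTA also read mostly toward the summit, in 32 of 38 matches in the 300 (84.2%, 69.6 to 92.6), against 64.7% (41.3 to 82.7) of 17 matches in the next 300, 63.0% (52.1 to 72.7) of 81 matches in all other thresholded peaks and 47.7% (44.9 to 50.4) of 1240 below the threshold. At promoters of the 300 the share for GGCGTA was 92.3% (75.9 to 97.9) of 26 matches. Elsewhere in the 300 it was 66.7% of 12, with an interval, 39.1 to 86.2%, that included 50%. The 300 had 30 peaks with GGCGTA reading toward the summit, and 8 of them also had CAGTGG reading toward it. CAGTGG or GGCGTA read toward the summit in 98 of the 300 (32.7%), so most of the strongest peaks had neither within 50 to 150 bp. ACCCCT, the second marked hexamer, did not read mostly toward the summit. In the 300 it did so in 11 of 29 matches (37.9%, 22.7 to 56.0). The share was 42.9% of 119 matches in all other thresholded peaks and 50.6% of 1441 below the threshold.

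**Figure D5:**
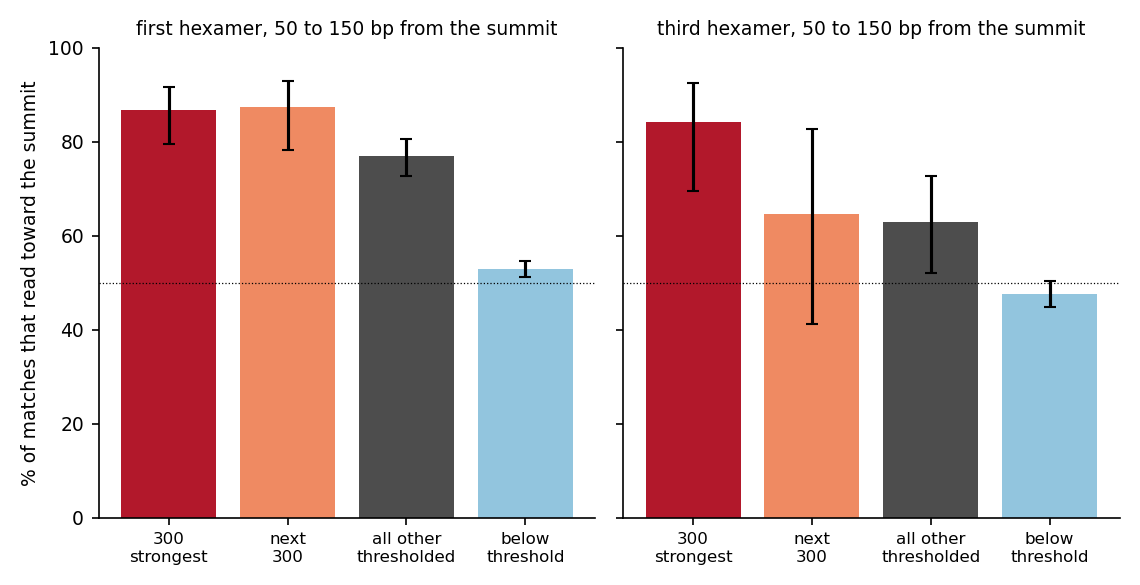
Share of matches between 50 and 150 bp from the summit that read toward it (y axis, percent, from 0) for CAGTGG, the first hexamer (left), and GGCGTA, the third (right), with bars for the 300 strongest, the next 300, all other thresholded peaks (which include those 300) and pooled peaks below the threshold. Error bars are Wilson 95% intervals and the dotted line is 50%. For CAGTGG the 300 strongest stand at 86.7% and peaks below the threshold at 53.0%. ACCCCT, the second hexamer, is not drawn and read toward the summit in 37.9% of 29 matches in the 300.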

How the data were processed

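The deposited files are narrowPeak lists on dm6. Per the readme text deposited with the samples, the authors called peaks in each library and in both libraries together against a control alignment, and an irreproducible discovery rate step gave the thresholded list. The aligner, the caller and their versions were not given in the sources used here. Control reads were not used here. The deposited signal per peak has no stated scale and served for ranks and description. The deposited -log10 q-value, so named by the format's definition, served for an alternative ranking. Depth is unknown.

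The thresholded list held exactly the 2593 strongest pooled peaks. Arm lengths of the Release 6 assembly fit the lists. Genes came from Ensembl release 115 (transposable elements apart, 18277 genes and 23697 start sites) and products from RefSeq. A summit took the first class that held it: promoter, 5' then 3' untranslated region, coding or other exon, intron, intergenic. It was matched to replicate lists within 100 bp. Shares have Wilson and differences Newcombe 95% intervals. The code was tested on simulated positions and run in Python 3.11.15 with scipy 1.17.1.

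Named genes were ranks 1 to 40, up to 6 per gene list, the 5 peaks on each side of rank 300, the 6 peaks most different between replicates each way, missing peaks, genes with most members, and the strongest of each location and arm. Further names were chosen after their values were seen. The members and the lists were chosen with earlier results of these data known. Alternatives left out each replicate or changed the number of peaks, the ranking, the distances, the window and the start sites.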

Additional observations from a re-analysis of the deposited data

How the results depend on the processing

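Ranking by the q-value with signal breaking ties returned the same 300 by construction, since all 300 are at its ceiling, and no member lay within 500 bp of another, so dropping such summits removed none. These alternatives therefore say nothing about stability. Without one replicate, that is with the 300 strongest peaks of the other, the promoter share was 59.0% to 61.0%, the divergent share 16.0% to 19.3%, the X share 19.3% to 23.7%, and the number of nearest genes 276 to 281, while the median GC moved to 35.0% to 35.25%, against 34.5% with both. The shares found in both replicates have no such value. CAGTGG read toward the summit in 85.4% of matches at the 300 strongest of replicate 2 and 87.5% at those of replicate 3. The promoter share moved to 38.3% with starts within 200 bp, 73.0% within 1000 bp and 67.3% in the 150 strongest. The divergent share moved to 13.0% within 200 bp and 23.7% within 1000 bp. Median GC moved to 30.5% in 100 bp windows, 40.25% in 400 bp windows and 36.0% in the 150 strongest. The number of nearest genes was 145 for the 150 strongest and 533 for the 600 strongest, and genes with a summit in their span or within 1 kb numbered 430. The share in both relaxed lists was 95.7% with summits within 50 bp. The other alternatives kept shares within their intervals, the gene count within 1.5 times and the median GC at 34.5%. No paired analysis was possible because the series has 1 group. The signal scale and the depth are unknown, places of single peaks have no error, and intervals cover counting only.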
